A study of Mus musculus with 3 samples.

Results

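The enzymes that place and remove methyl groups on lysine 36 of histone H3 were examined as genes that carry the mark themselves. The 10 members, out of 21067 protein-coding genes with at least 1 usable window, were taken by name: the methyltransferases Setd2, Nsd1, Nsd2, Nsd3 and Ash1l, and the demethylases Kdm2a, Kdm2b, Kdm4a, Kdm4b and Kdm4c. Their gene bodies (GENCODE M21, GRCm38) overlap 511 of the 1186323 windows of 2 kb for which H3K36me3 values are given. The values come from native ChIP-seq without cross-linking on wildtype C57BL6/Babr mouse oocytes of day 25 at the GV stage, in which the nucleus, or germinal vesicle, is still intact. Pools of about 280 oocytes gave 3 replicates of a single group, without a treatment or a second genotype. Less antibody went into replicate 2 than into the others, and no source says that the pools came from separate mice, so the spread between replicates may be technical.

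Trimethylation of H3K36 is laid down by SETD2 as it travels with elongating RNA polymerase II, so the mark lies over the bodies of transcribed genes. The NSD proteins and ASH1L add the mono- and dimethyl forms. Erasers of the KDM2 family remove the lower methylation states, and KDM4A, KDM4B and KDM4C remove trimethylation from H3K36 and from H3K9. In growing oocytes the mark covers transcribed regions that then gain DNA methylation. It is usually not found together with H3K27me3, the mark of Polycomb repression. In a part of its windows it overlaps with H3K4me3, the mark of promoters that also forms wide domains in oocytes.

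The bases before annotated starts are shown because the members differ in how H3K36me3 and H3K4me3 lie at their starts. RefSeq entries (GRCm38.p6) were matched for Setd2, Kdm2b, Kdm4a and Kdm4c, which is 4 of the 10 members. Each line holds the 250 bases before a start, 5′ to 3′ on the strand of the gene, with every CG in capitals. CG reads the same on both strands. Among 32544 entries of the same length, 92.2% hold at least 1 CG and the median is 6.
Setd2, start of the gene, chr9:110532347-110532596, plus strand: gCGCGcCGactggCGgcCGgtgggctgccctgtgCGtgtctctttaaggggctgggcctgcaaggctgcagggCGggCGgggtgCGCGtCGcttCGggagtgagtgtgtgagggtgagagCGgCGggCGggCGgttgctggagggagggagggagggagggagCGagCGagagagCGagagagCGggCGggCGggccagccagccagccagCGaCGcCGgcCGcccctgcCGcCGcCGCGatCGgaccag
Kdm2b, inner start, chr5:122900368-122900617, minus strand: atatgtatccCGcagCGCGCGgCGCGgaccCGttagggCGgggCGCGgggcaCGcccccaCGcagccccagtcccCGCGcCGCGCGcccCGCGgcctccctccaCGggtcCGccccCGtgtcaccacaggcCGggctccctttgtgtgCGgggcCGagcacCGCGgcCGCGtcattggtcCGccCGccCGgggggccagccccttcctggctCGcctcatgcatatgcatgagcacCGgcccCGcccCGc
Kdm4a, start of the gene, chr4:118180044-118180293, minus strand: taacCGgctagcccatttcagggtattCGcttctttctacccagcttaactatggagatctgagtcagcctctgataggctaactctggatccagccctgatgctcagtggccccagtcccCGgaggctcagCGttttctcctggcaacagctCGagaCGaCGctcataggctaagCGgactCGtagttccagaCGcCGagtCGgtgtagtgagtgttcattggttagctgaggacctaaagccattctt
Kdm4c, start of the gene, chr4:74242247-74242496, plus strand: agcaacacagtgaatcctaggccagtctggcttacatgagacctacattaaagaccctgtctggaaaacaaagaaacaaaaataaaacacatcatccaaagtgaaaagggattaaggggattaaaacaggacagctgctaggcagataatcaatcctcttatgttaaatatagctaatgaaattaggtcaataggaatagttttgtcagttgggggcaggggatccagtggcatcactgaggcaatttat
Kdm4c, inner start, chr4:74251629-74251878, plus strand: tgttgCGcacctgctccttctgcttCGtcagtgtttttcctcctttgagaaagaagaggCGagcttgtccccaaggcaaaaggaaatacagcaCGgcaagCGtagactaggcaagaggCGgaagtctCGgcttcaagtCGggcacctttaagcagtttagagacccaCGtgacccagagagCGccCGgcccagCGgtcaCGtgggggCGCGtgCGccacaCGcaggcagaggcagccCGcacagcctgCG
The Setd2 stretch holds 31 CG and the one before the inner Kdm2b start 36 CG, more than 94.8% and 97.4% of the entries. Kdm2b entries near the start of the gene, not printed, hold 27 CG at 0.724 kb and 12 CG at 1.32 kb, more than 91.4% and 66.3% of the entries. Both lie in the first window of Kdm2b. The Kdm4a stretch holds 12 CG. The stretch before the first Kdm4c base holds 0 CG, whereas the one before its inner start, 9.38 kb further on, holds 19 CG.

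Values are given as RPKM, the name under which the window values were deposited, and a gene's level is the mean over the windows that overlap it. The mean over all windows lay between 0.900 and 0.903 RPKM in the replicates. Replicate 1 held the most reads in windows, and a single read was worth 0.136 RPKM there against 0.396 and 0.338 in replicates 2 and 3. The 511 windows of the members held 13263 reads in all. Of the marker genes tested over their bodies, 8 of 9 oocyte genes lay above the mean of the genome and 1, Sohlh1, lay below it. Of 6 granulosa cell genes 0 lay above and 5 below, where 49.6% of all genes tested were higher and 33.1% lower. Markers of fewer than 3 windows were not tested, and their means lay above that of all windows. These were Ooep of the oocyte at 1.60 ± 1.06 RPKM (SD, n = 3), and the granulosa cell genes Amh at 1.39 ± 0.68 and Hsd17b1 at 1.40 ± 0.12.

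All 10 members carried more H3K36me3 than the average of the genome. In limma's moderated test of gene bodies against the genome mean, with Benjamini-Hochberg adjustment over 18807 genes, 10 of 10 members were higher, where 49.6% of all tested genes were higher and 33.1% lower. The largest adjusted p among the members was 0.00012, for Kdm4c. The median of the members was 2.32 RPKM against 1.24 over the tested genes, and their median log2 ratio to the genome mean was 1.27 against 0.40. The members are long, and longer genes had higher levels. With at least 10 windows per gene, 6599 of 10763 genes were higher and the median log2 ratio of all genes was 0.69. Among genes of at least 15 windows, Nsd3, Nsd1, Kdm2a and Kdm4c lay above 58.1%, 57.2%, 56.4% and 42.0%, and each other member above 82.1% or more.

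**Figure D1:**
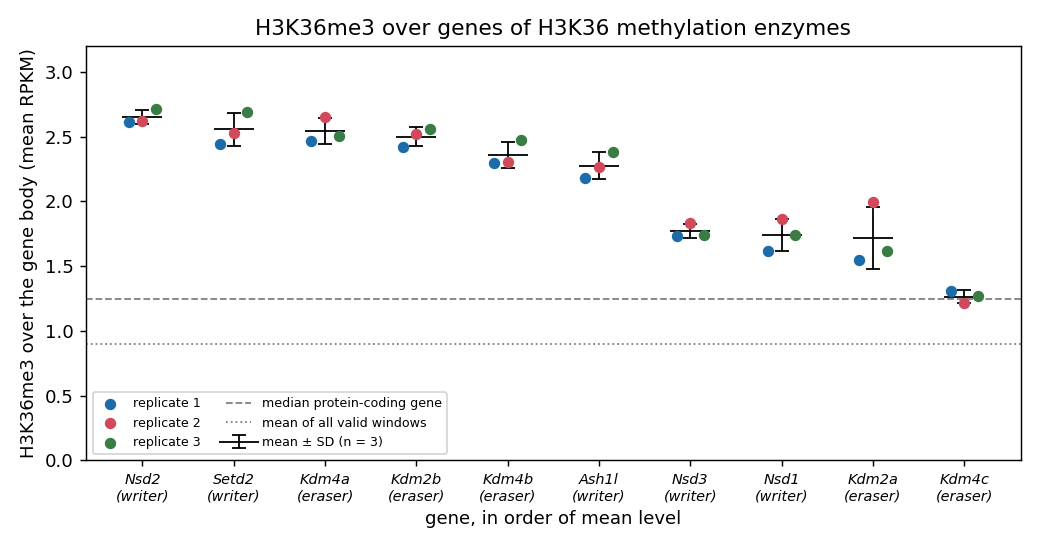
Mean H3K36me3 over each gene body in RPKM for the 10 genes, in order of level, with 1 point per replicate and the mean ± SD of the 3 replicates as bars. The dashed line is the median protein-coding gene at 1.24 RPKM and the dotted line the mean of all windows. Kdm4c lies at the dashed line, and all other genes lie above it in every replicate.

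Among the methyltransferases, Nsd2 and Setd2 had the highest levels. Nsd2, which dimethylates H3K36 (chr5:33820725-33897975, plus strand), had 2.61, 2.62 and 2.72 RPKM in replicates 1, 2 and 3. That gives 2.65 ± 0.06 RPKM (SD, n = 3), above 96.1% of protein-coding genes, and a log2 ratio to the genome mean of 1.46 (SE 0.06). Setd2, the enzyme that adds the trimethyl form itself (chr9:110532597-110618633, plus strand), had 2.44, 2.53 and 2.69 RPKM, or 2.56 ± 0.13 RPKM (SD, n = 3). It lay above 94.3% of protein-coding genes, with a log2 ratio of 1.41 (SE 0.06). Ash1l, an enzyme of the Trithorax group (chr3:88950622-89079375, plus strand), had 2.18, 2.26 and 2.38 RPKM. Nsd3, the NSD enzyme also known for a short form that lacks the catalytic domain (chr8:25601601-25719667, plus strand), had 1.73, 1.83 and 1.74 RPKM. Nsd1, whose human counterpart is the Sotos syndrome gene (chr13:55209782-55318325, plus strand), had 1.62, 1.86 and 1.74 RPKM, and its mean hides 2 stretches of very different level that are described further on.

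Of the demethylases, Kdm4a and Kdm2b had levels close to that of Setd2. Kdm4a, an eraser of H3K9 and H3K36 trimethylation (chr4:118136957-118180043, minus strand), had 2.47, 2.65 and 2.50 RPKM. Kdm2b, which binds CpG islands without DNA methylation and brings a Polycomb complex to them (chr5:122870665-122989823, minus strand), had 2.42, 2.52 and 2.55 RPKM. Kdm4b, of the same family as Kdm4a (chr17:56326062-56402870, plus strand), had 2.29, 2.31 and 2.47 RPKM. These genes lay above 94.0%, 93.0% and 89.1% of protein-coding genes. Kdm2a, the paralogue of Kdm2b (chr19:4314419-4398285, minus strand), had 1.54, 1.99 and 1.61 RPKM, the widest spread of the 10, with replicate 2 above the others. Kdm4c, the longest of the genes at 163 kb (chr4:74242497-74405860, plus strand), had 1.31, 1.21 and 1.27 RPKM. It lay above 50.5% of the protein-coding genes of at least 3 windows, but above only 42.0% of those of at least 15 windows. Its log2 ratio to the genome mean was 0.44 (SE 0.06). Across the other 9 members this ratio ran from 0.85 (SE 0.08) in Kdm2a to 1.46 in Nsd2.

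The order by mean level was Nsd2, Setd2, Kdm4a, Kdm2b, Kdm4b, Ash1l, Nsd3, Nsd1, Kdm2a and Kdm4c. Neighbours in this order differed beyond their spread, meaning the same sign in all 3 replicates and a mean log2 ratio larger than its SD, for 5 of 9 pairs. These were Nsd2 over Setd2, Kdm2b over Kdm4b, Kdm4b over Ash1l, Ash1l over Nsd3 and Kdm2a over Kdm4c. The two-sided exact sign-flip permutation test gave p = 0.25 for each of the 5, the smallest that 3 replicates allow. The largest steps were those from Ash1l down to Nsd3, a log2 ratio of 0.35 ± 0.07 (SD, n = 3), and from Kdm2a down to Kdm4c, 0.41 ± 0.24. Setd2 and Kdm4a, Kdm4a and Kdm2b, Nsd3 and Nsd1, and Nsd1 and Kdm2a did not differ beyond their spread. Averaged by role, the level of the 5 methyltransferases exceeded that of the 5 demethylases slightly, and the log2 difference of 0.10 ± 0.03 had the same sign in 3 of 3 replicates. It rests on Kdm4c, since without this gene, an alternative added after seeing the data, the difference was -0.053 ± 0.038.

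The level was spread over most of each gene. A window was called enriched, after the study's threshold, where its mean over the replicates exceeded 1 RPKM. Of the 511 windows, 441 were enriched (86.3%), where 51.2% of the windows of protein-coding genes were, and 314 exceeded 1 RPKM in each replicate (61.4%, against 34.0%). Single windows hold few reads, since above 1 RPKM means 8 reads in replicate 1 and 3 reads in replicates 2 and 3, so these shares are descriptions. Setd2 had 44 of 44 windows enriched, an unbroken run of 88 kb. Kdm2b had 59 of 60 in a run of 118 kb, Nsd2 and Kdm4b had 38 of 39 each, and Kdm4a had 22 of 23. Ash1l had 61 of 65, Kdm2a 39 of 43 and Nsd3 51 of 60. More than 80% of the windows were enriched in 8 of 10 members, where 41.6% of protein-coding genes of at least 15 windows had such a share. The exceptions were Kdm4c with 54 of 82 windows and Nsd1 with 35 of 56.

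**Figure D2:**
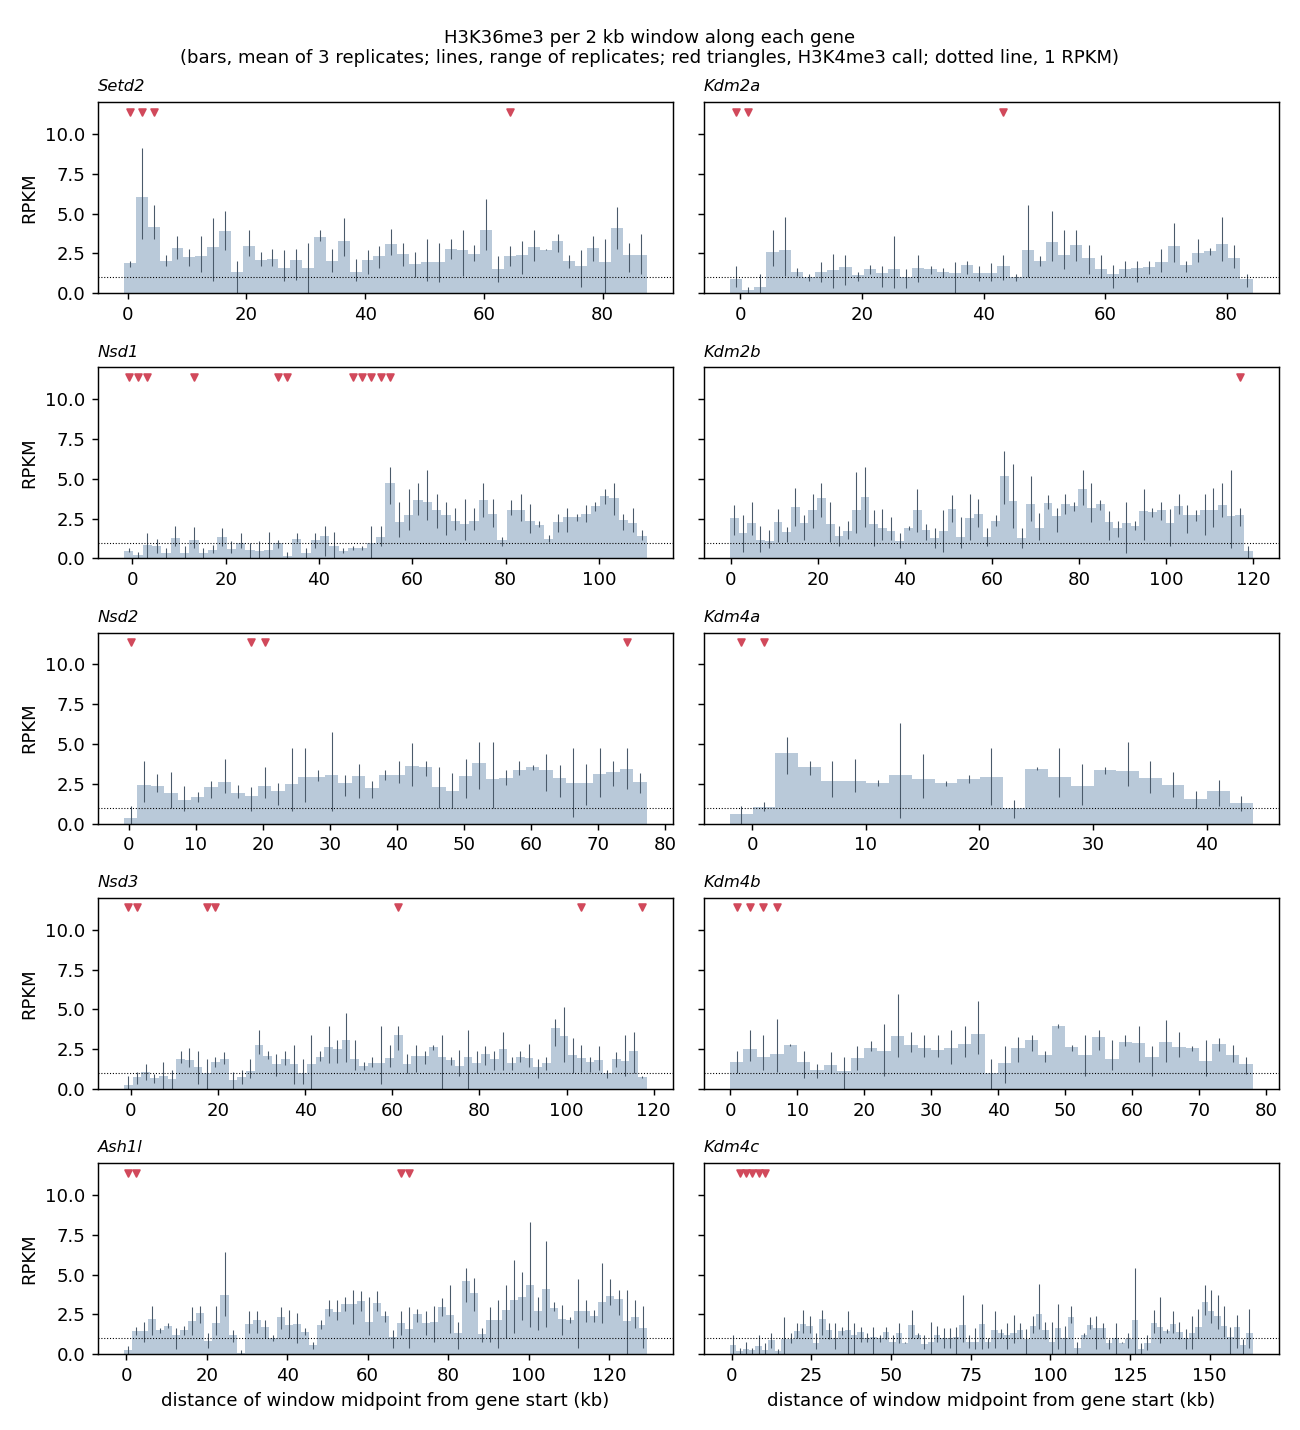
H3K36me3 in RPKM per 2 kb window against the distance of the window's midpoint from the start of the gene in kb, in the direction of transcription. Bars are the mean of 3 replicates, vertical lines their range, red triangles windows called for H3K4me3, and the dotted line is 1 RPKM. Setd2 is covered from its start, whereas Nsd1 steps up 56 kb from its start and the first windows of Kdm4c lie below 1 RPKM.

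Along the genes, the level rose toward the 3′ end in most members. The windows of each gene were divided into 3 equal sections in the direction of transcription, and the last section was set against the first in limma's moderated test over 8065 genes of at least 15 windows, with Benjamini-Hochberg adjustment. The last section was higher in 7 of 10 members and lower in 0, where 37.5% of all genes tested were higher and 5.57% lower. The median log2 ratio was 0.51 over the members and 0.34 over all genes tested.

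Nsd1 had the largest difference of the members. Its first section had 0.830, 0.617 and 0.545 RPKM in replicates 1, 2 and 3 and its last section 2.61, 2.71 and 2.48, so the sections did not overlap. The log2 ratio was 1.84 (SE 0.20, limma adjusted p = 1.04e-06). In Ash1l the sections had 1.66 ± 0.20 and 2.77 ± 0.24 RPKM (SD, n = 3), a log2 ratio of 0.71 (SE 0.13, limma adjusted p = 0.00018). In Nsd2 the first section had 2.26, 1.52 and 2.19 RPKM and the last section 2.82, 3.57 and 2.86. Its log2 ratio was 0.62 (SE 0.16, limma adjusted p = 0.0049), and replicate 2 showed the largest rise. In Nsd3 the ratio was 0.56 (SE 0.14, limma adjusted p = 0.0040), in Kdm2a 0.52 (SE 0.17, 0.021), in Kdm4c 0.49 (SE 0.13, 0.0064) and in Kdm2b 0.31 (SE 0.12, 0.041). Every one of these 7 genes was higher in its last section in all 3 replicates.

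Setd2 and Kdm4a showed no such difference, with log2 ratios of -0.07 (SE 0.12, limma adjusted p = 0.69) and -0.07 (SE 0.18, 0.79) and the last section higher in 1 of 3 replicates each. Kdm4b had a ratio of 0.22 (SE 0.14, limma adjusted p = 0.22), higher in 3 of 3 replicates. The calls depended on single replicates: without replicate 1, Kdm2a, Kdm2b and Kdm4c were no longer called and 4 members remained (limma adjusted p of 0.13, 0.15 and 0.063), without replicate 2 Kdm2b and Nsd2 were lost (0.26 and 0.095) and 5 remained, and without replicate 3 Kdm2a was lost (0.15) and 6 remained. With the first 2 windows of each gene left out, 5 members were called, without Kdm2a and Kdm2b (limma adjusted p of 0.064 and 0.085). Kdm2b also lost its call with a pseudocount of 0.01 (0.057), with windows taken by their midpoint (0.050) and with genes of at least 6 windows included (0.078). With the median over windows in place of the mean, 0 members and 0 genes passed limma's adjusted threshold, although 2805 of the 8065 genes had an unadjusted p under 0.05.

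**Figure D3:**
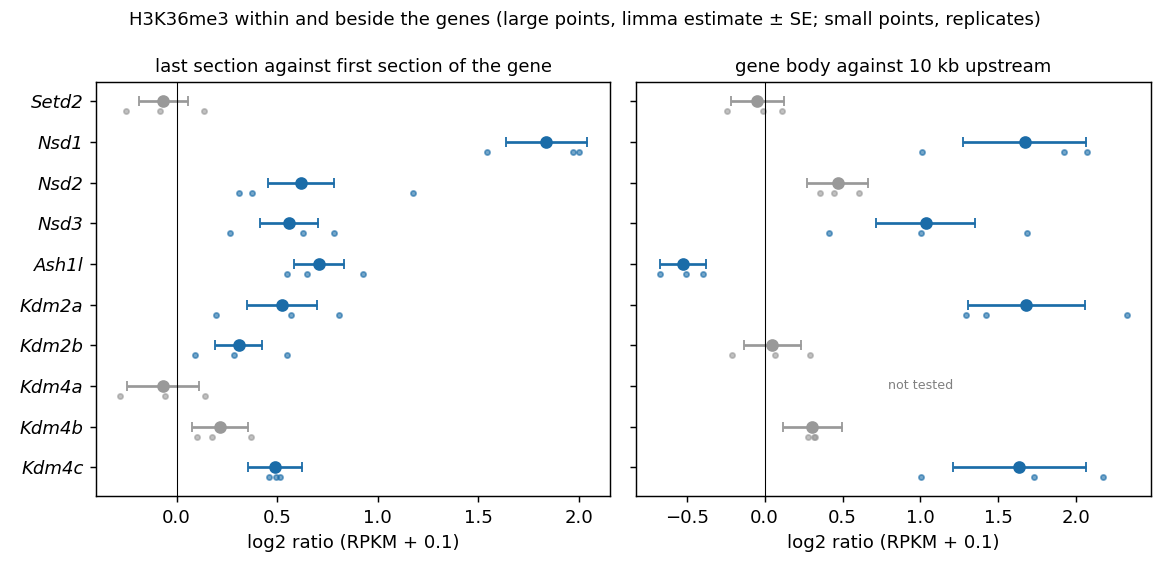
Log2 ratios of H3K36me3 for each gene, last section against first section on the left and gene body against the 10 kb upstream on the right. Large points are limma estimates with their SE, small points the 3 replicates, and blue marks an adjusted p under 0.05. Nsd1 lies farthest to the right on the left side, and Ash1l is the only gene called below 0 on the right side.

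In Nsd1 the difference was a step. The position that best divides the windows into a lower and a higher stretch, a description chosen after the profiles had been seen, lay 56 kb from the start at chr13:55264001. The 28 windows before it had 0.810, 0.680 and 0.761 RPKM in replicates 1, 2 and 3, and the 28 windows after it had 2.42, 3.04 and 2.72. Of the windows before the step 7 of 28 were enriched, and after it 28 of 28. The division took up 71.2% of the variance between windows, more than in 96.0% of the 8065 genes divided in the same way. It fell at 56 kb in replicates 1 and 2 taken alone and at 52 kb in replicate 3. A run of 5 windows called for H3K4me3, from 48 to 58 kb, spans the step. This run holds the annotated start of an inner transcript of the gene, of the type processed transcript, at chr13:55263425, which is 576 bp from the step. The window that begins at the step had 3.39, 5.15 and 5.75 RPKM, the highest of the gene.

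Kdm4c had a low stretch at its start. The 8 windows of the first 16 kb had 0.373, 0.495 and 0.338 RPKM and 0 of 8 were enriched, while the 74 windows that followed had 1.41, 1.29 and 1.37 RPKM and 54 of 74 were enriched. Replicates 1 and 2 alone placed the division at 18 and 20 kb, and replicate 3 alone placed it at 148 kb, so the position is not settled. The division took up 22.1% of the variance between windows, more than in 46.2% of the genes, which is near the middle. A run of 5 windows called for H3K4me3 lies within the low stretch, from 2 to 12 kb, with 0.308 ± 0.147 RPKM of H3K36me3 (SD, n = 3). The inner start with 19 CG falls in this run, as does an antisense gene, A230083N12Rik.

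The mean over replicates was highest near the start of Setd2. Its second window, at 2 kb, had 3.39, 5.55 and 9.14 RPKM, the highest mean of any window of the 10 genes at 6.03 ± 2.90 (SD, n = 3). The first 3 windows together had 4.02 ± 1.04 RPKM, all 3 were called for both H3K36me3 and H3K4me3, and the remaining 41 windows had 2.45 ± 0.07. Replicate 1, with the most reads, did not single out the start: its highest Setd2 window, at 82 kb, had 4.07 RPKM. The division of Setd2 after 6 kb took up 20.1% of the variance, more than in 41.9% of genes, and it fell at 6 kb in replicates 2 and 3 alone but at 60 kb in replicate 1. In the other members the best division took up at most 48.3% of the variance between windows (Nsd2, at 24 kb), and outside Kdm4a it moved widely between replicates. In Kdm4a it fell at 40, 40 and 38 kb in replicates 1, 2 and 3 alone. The level there dropped from 2.68 ± 0.11 to 1.64 ± 0.07 RPKM in the last 3 windows, the fewest allowed after a division. That took up 14.9% of the variance, more than in 29.6% of genes.

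The 10 kb upstream of each gene were set against the mean over its whole body, which does not show where within the gene the level rises. In limma's moderated test of the body against the windows of the 10 kb before the start, over 18490 genes with Benjamini-Hochberg adjustment, 4 of the 9 members tested were higher and 1 was lower, where 37.6% of all genes tested were higher and 6.38% lower. The median log2 ratio of the members, 0.47, was below the 0.53 of all genes tested. Flank windows were taken by their midpoint, so a window across the start can count in both body and flank. This holds for the first windows of Nsd1, Nsd3, Kdm2a and Kdm4a. With body windows also taken by their midpoint, so that none was shared, the same 4 members were higher and the same 1 lower. Kdm4a had only 2 usable windows upstream, 1 of them its own first window, with 0.416 ± 0.190 RPKM (SD, n = 3), and was not tested.

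The body means of Kdm2a, Nsd1, Kdm4c and Nsd3 lay above those of their flanks. In Nsd1 and Kdm4c the level did not rise at the start. The first 56 kb of Nsd1 had 0.750 ± 0.066 RPKM and the first 16 kb of Kdm4c 0.402 ± 0.082 (SD, n = 3). The flank of Kdm2a had 0.570, 0.317 and 0.541 RPKM, and the log2 ratio of body to flank was 1.68 (SE 0.37, limma adjusted p = 0.0033). The flank of Nsd1 had 0.353, 0.872 and 0.338 RPKM, with a log2 ratio of 1.67 (SE 0.39, limma adjusted p = 0.0045). That of Kdm4c had 0.361 ± 0.179 RPKM, with a log2 ratio of 1.63 (SE 0.43, limma adjusted p = 0.0080). For Nsd3 the flank had 0.815, 1.35 and 0.474 RPKM, and the ratio was 1.03 (SE 0.32, limma adjusted p = 0.018). H3K27me3 was called in the 10 kb upstream of 3 of the 9 members tested, in 2 windows for Nsd1, 2 for Kdm4c and 1 for Kdm2a, where 47.5% of the 18490 genes had such a window.

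Ash1l lay below its flank, which is occupied by Dap3, a mitochondrial ribosome gene that overlaps the start of Ash1l. That flank had 2.91, 3.25 and 3.86 RPKM, higher than the body in every replicate, and the log2 ratio was -0.52 (SE 0.15, limma adjusted p = 0.013). Setd2 and Kdm2b were level with their flanks, at log2 ratios of -0.05 (SE 0.17, limma adjusted p = 0.85) and 0.05 (SE 0.18, 0.85). Kif9, a kinesin gene, lies before Setd2, where the flank had 2.66 ± 0.38 RPKM, and the transcripts Gm44574 and A930024E05Rik lie before Kdm2b, where it had 2.44 ± 0.49. Kdm4b had 1.89 ± 0.07 RPKM upstream, where Uhrf1, a reader of hemimethylated DNA, lies, and a log2 ratio of 0.31 (SE 0.19, limma adjusted p = 0.22). Nsd2 had 1.89 ± 0.21 RPKM upstream with no annotated gene there, and a ratio of 0.47 (SE 0.19, limma adjusted p = 0.069). Without replicate 1, Kdm2a was the only member called (1 higher, 0 lower), with limma adjusted p of 0.079 for Nsd1, 0.095 for Kdm4c, 0.12 for Nsd3 and 0.081 for Ash1l. Without replicate 3, Nsd3 (0.14) and Ash1l (0.094) were not called.

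Downstream, the level over 10 kb differed between members. Nelfa overlaps the last window of Nsd2, and Rnf34 overlaps the end of Kdm2b. Other genes in these 10 kb were not looked up, so the values need not be the member's own mark. The 10 kb after Nsd3 had 2.93, 2.93 and 3.79 RPKM in replicates 1, 2 and 3, above its body in each. Those after Nsd2 had 2.71 ± 0.85 RPKM (SD, n = 3), which differed from its body by less than the spread. Those after Kdm4c and Kdm2a had 0.474 ± 0.185 and 0.561 ± 0.409 RPKM. The remaining 6 members lay between these values, from 0.952 ± 0.224 after Kdm4a to 1.86 ± 0.27 after Kdm2b.

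None of the 511 windows was called for H3K27me3, where 25.9% of the windows of protein-coding genes were. All 10 members were free of it, as were 50.3% of protein-coding genes of at least 15 windows. H3K4me3 was called in 45 windows (8.81%, against 26.2% of protein-coding windows), and 23 of these also carried H3K36me3, which is 5.22% of the enriched windows against 14.1% over protein-coding genes. Windows with H3K36me3 alone numbered 418, those with H3K4me3 alone 22, and 48 had no call. The calls of the other marks came from earlier data sets of the same laboratory and were given once per window, without replicates. Over all members, H3K36me3 was lower in windows called for H3K4me3, at 1.49 ± 0.14 RPKM, than in the others, at 2.10 ± 0.06. Setd2, with 3.60 ± 0.63 against 2.45 ± 0.09 RPKM, went the other way. The single such window of Kdm2b had 2.75 ± 0.62 against 2.50 ± 0.06 RPKM, a difference smaller than its spread.

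**Figure D4:**
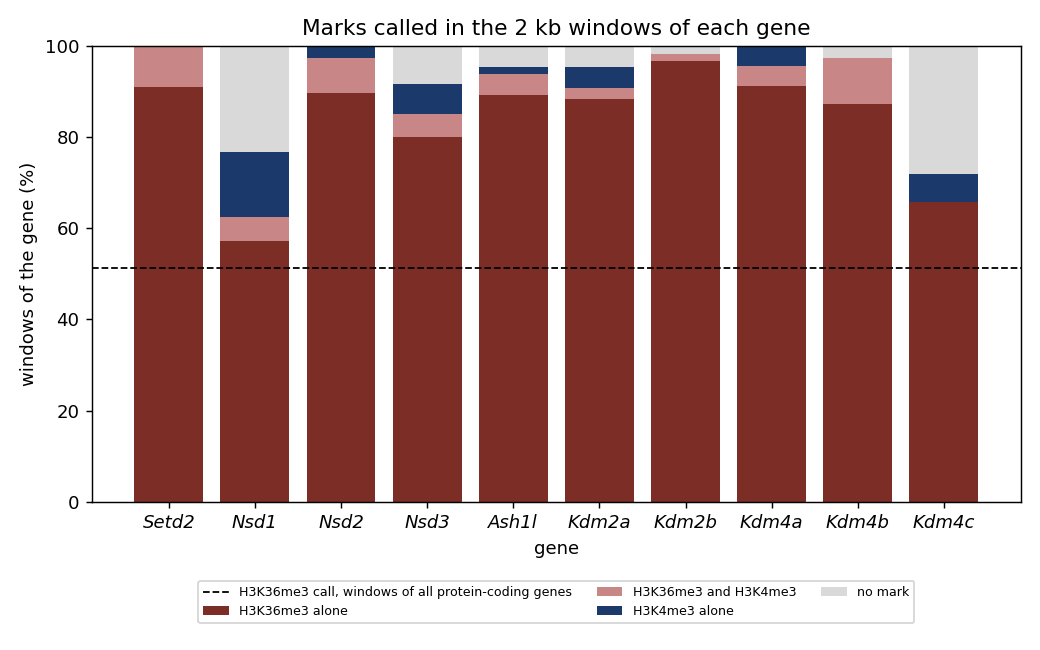
Share of the 2 kb windows of each gene, in percent, by the marks called in them. The dashed line at 51.2% is the share of windows of all protein-coding genes with an H3K36me3 call, and all 10 genes lie above it. Nsd1 has the largest share of H3K4me3 and Kdm4c the largest share without a mark.

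H3K4me3 marked the starts of most members. It was called in the first window of 8 of 10, where 88.3% of protein-coding genes of at least 15 windows had it, and within the first 3 windows of 9 of 10, against 91.5%. At the starts of Nsd1, Nsd2, Nsd3, Ash1l, Kdm2a and Kdm4a the first window had H3K4me3 alone and between 0.272 and 0.877 RPKM of H3K36me3. Those of Setd2, with 1.88 ± 0.22 RPKM, and of Kdm4b, with 1.72 ± 0.68, carried both calls. The run over the start of Kdm4b was 8 kb long and that of Setd2 6 kb.

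Kdm2b stood apart in having no H3K4me3 at its start. Its first window had 1.49, 2.77 and 3.38 RPKM of H3K36me3 and was called for that mark alone, and the transcripts Gm44574 and A930024E05Rik overlap that window. The inner start with 36 CG lies in a window with 1.92 ± 0.52 RPKM that was also called for H3K36me3 alone. The single H3K4me3 window of Kdm2b lies 116 kb into the gene, beside the neighbour Rnf34. In Kdm4c, where the 250 bases before the start hold 0 CG, the first window had no call, and H3K4me3 began at 2 kb.

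Away from the starts, single windows or pairs with H3K4me3 and H3K36me3 together lay inside several members. Nsd2 had 2 such windows at 18 to 22 kb, next to a cluster of protein-coding starts at 22.4 kb, with 2.05 ± 0.87 RPKM. Ash1l had 2 at 68 to 72 kb with 1.78 ± 1.03 RPKM, beside the start of a transcript with a retained intron at 72.6 kb. Nsd2 had a further window at 74 kb, Setd2 had 1 at 64 kb, Kdm2a 1 at 44 kb, and Nsd3 had 3, at 20, 62 and 104 kb. Nsd1 had the most H3K4me3 of the members, 11 of 56 windows, of which 3 also carried H3K36me3.

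Windows that overlap an exon did not differ from the other windows in the same way in all members. Exonic windows were higher in all 3 replicates in Nsd3, Ash1l, Kdm2a and Kdm4a, by 0.458 ± 0.303 RPKM in Ash1l and by 0.281 ± 0.101 in Kdm2a (SD, n = 3). In Kdm2b they were lower in all 3 replicates, with 2.34 ± 0.16 RPKM against 2.60 ± 0.02 in the other windows. In the other 5 members the sign differed between replicates. A 2 kb window mixes exon and intron, and no test was made.

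Of 23 windows shared with another annotated gene, 7 lie in Nsd3 and 5 in Kdm2b. Without them the gene levels hardly moved, from 2.28 to 2.31 RPKM in Ash1l, which shares its start with Dap3, and from 1.74 to 1.79 in Nsd1. The called direction of the body level was the same in all 10 members.

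Other enzymes listed for H3K36, by report or by family, were less uniform. Of 6, 5 had enough windows for limma's test of the gene body, and 1 was higher than the genome mean, 0 were lower and 4 did not pass, where 49.6% of all genes were higher. Setmar, a SET domain gene fused to a transposase in primates, was the highest at 1.34, 2.77 and 2.56 RPKM, with a log2 ratio of 1.15 (SE 0.21, limma adjusted p = 0.00090). Kdm8, a JmjC domain protein, followed at 1.15 ± 0.19 RPKM (limma adjusted p = 0.12). The lowest were Kdm4d, the testis-expressed relative of Kdm4a, at 0.727 ± 0.025 RPKM (limma adjusted p = 0.11), and Prdm9, which marks recombination sites in meiosis, at 0.858 ± 0.114 (0.72). Kdm4d was listed by its family, and an action of its own on H3K36 is not claimed. Smyd2, outside the naming rule and singled out after its values were seen, had H3K27me3 in 18 of its 22 windows.

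Readers of the mark and elongation factors that travel with SETD2 were all higher than the genome mean. That was 14 of 14 in limma's test with Benjamini-Hochberg adjustment, where 49.6% of all genes were higher. The highest were Glyr1, a nucleosome-binding PWWP protein, at 2.98, 2.55 and 2.90 RPKM, and Brpf1, a scaffold of acetyltransferases, at 2.09, 3.01 and 2.57. The lowest were Zmynd11, which binds trimethylated H3K36 on the variant H3.3, at 1.25 ± 0.23 RPKM (log2 ratio 0.42, SE 0.10, limma adjusted p = 0.0034), and Dnmt3a, the DNA methyltransferase whose PWWP domain reads the mark. In the comparison of sections, where 37.5% of all genes tested were higher and 5.57% lower, 8 genes of this list were long enough. Of these, 4 were higher in the last section and 1 was lower. The lower was Dnmt3b, named after its value was seen, with a log2 ratio of -0.55 (limma adjusted p = 0.037). Dnmt3a had 1.34, 1.54 and 1.37 RPKM and rose along the gene, with a log2 ratio of the last to the first section of 1.75 (limma adjusted p = 9.35e-06).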

How the data were processed

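H3K36me3 native ChIP-seq was analysed in 3 replicates of a single group. The authors aligned reads to GRCm38 (Bowtie2 2.2.9, per the labels), counted them in 2 kb windows as RPKM in SeqMonk, and removed windows by their input signal. The deposited RPKM values are whole multiples of 1 read in 100% of values in each replicate (within 0.01 of a read), which gave 7888140, 2692510 and 3166564 reads in windows. Whether values were divided by window length could not be settled, which cancels in ratios. A second deposited table gives each window's combination of H3K36me3, H3K4me3 and H3K27me3 calls. How duplicate reads were treated is not given in the sources used here.

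A gene's windows were those overlapping its GENCODE M21 body by any base. Flank windows were those with their midpoint in the 10 kb beside the gene, so body and flank can share a window. Tests used limma 3.58.1 (R 4.3.3) on log2(RPKM + 0.1), so that ratios of low values are understated, as one-sample moderated tests over all protein-coding genes with at least 3 windows (sections along the gene, at least 15), Benjamini-Hochberg adjusted at 0.05. The prior variance followed the read number of the smaller part, a choice made after a test on simulated data had failed without it. With it, 109 of 200 simulated 2-fold genes among 8065 were found for the sections. No count test was run, since a single group has no contrast for it. All members were named, and of the other lists the 2 highest and 2 lowest genes of each. Members and lists were chosen with earlier results of these data known.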

Additional observations from a re-analysis of the deposited data

How the results depend on the processing

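No comparison between groups was possible because the 3 replicates form a single group. Sections, and body and flank, were compared within each replicate. Each choice was changed in turn. Of 151 recomputed counts, shares and differences, 121 stayed within their limits, 29 moved and 1 reversed, and of 299 recomputed values of single members 30 lost and 1 gained significance. The reversed one is the log2 difference of methyltransferases and demethylases, 0.10, which was -0.053 with Kdm4c left out, an alternative chosen after seeing the data. No called member changed sign, but 9 values without a call did, all of Setd2, Kdm4a and Kdm2b, between -0.07 and 0.26. The body level was called higher in 10 of 10 members under every alternative run. Genes lower than the genome mean numbered 6233 of 18807, 3175 of 10763 with at least 10 windows per gene, where fewer genes were tested, and 3535 against windows outside genes. For the last against the first section, members called higher ranged from 4 to 6 without 1 replicate. With the first 2 windows left out they numbered 5. With the median over windows they numbered 0, as did genes higher (3023 with the mean) and lower (449). For the flank, leaving out 1 replicate gave 3961 to 6650 genes higher, 567 to 1175 lower, 1 to 4 members higher and 0 to 1 lower. The median gave 0 in all 4 counts, with an unadjusted p under 0.05 in 6360 of 18490 genes in limma's test. The median leaves tied values, and 468 genes had no spread between replicates against 6 with the mean. With windows of other genes left out, 4240 of 9576 genes were higher and 259 lower, and 0 of 5 members tested were lower. Ash1l and Nsd3, whose flank windows all lie in annotated genes, could not be tested there. With 20 kb upstream, 2064 genes were lower, and the members called were 5 higher, Kdm4a and Nsd2 gained and Nsd3 lost. With only genes whose flank windows overlap no annotated gene, the gene itself included, 1734 of 3656 were higher and 85 lower. Of 2 members tested 1 was higher and 0 lower. Nsd1 and Kdm2a, with no other gene upstream, dropped out because their own first window lies in the flank. Ash1l and Nsd3 could not be tested here either. The enriched share of the members' windows was 70.1% at a threshold of 1.5 RPKM and 49.3% at 2 RPKM. The share above it in each replicate was 37.8% and 20.5% there, and 65.0% to 75.3% with 1 replicate left out at 1 RPKM. The value of 1 read in replicates 2 and 3 limits what a single window can show.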

Other observations

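The genes whose H3K36me3 profile was most like that of Setd2 were found by the root mean square difference of log2 level over 10 equal parts of the gene, among 8055 protein-coding genes of at least 15 windows outside the 10 members. They were Zfp644, a zinc finger gene, with a difference of 0.12, Fstl4, with 0.16, and Mad1l1, a spindle checkpoint gene, with 0.16, against a median of 1.08. Their levels were 2.54 ± 0.29, 2.55 ± 0.16 and 2.73 ± 0.05 RPKM (SD, n = 3), and none of their windows was called for H3K27me3. The likeness was measured on the mean of the 3 replicates and is a description.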
